A study of Arabidopsis thaliana with 12 samples.

Results

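The 249 genes described here were found in wild-type inflorescences of Arabidopsis thaliana and were low or listed at 0 in the other sampled tissues. They are the nuclear genes with at least 20 FPKM (fragments scaled by transcript length and sequencing depth) in inflorescences and under 1 FPKM in each of the other 3 groups. The table held 33280 nuclear gene identifiers, of which 8851 outside the pollen coat clusters reached 20 FPKM in inflorescences, and 2.81% of these were members. The rule left out a pair of pollen coat protein clusters, which held 9 more genes of the same pattern. The members were chosen by their FPKM values in all 4 groups, so the levels below are a description and none of them was tested.

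All plants were in the Landsberg erecta background, and RNA was sequenced from poly(A)-selected, stranded libraries, 3 in each of 4 groups. The inflorescence group was the main inflorescence of wild-type plants, from which flowers past stage 12, the last stage before opening, had been taken off. Both apex groups came from ap1-1 cal-1 plants that carry 35S::AP1-GR. The transgene drives APETALA1, a regulator of floral fate, joined to a glucocorticoid receptor domain, from the constitutive 35S promoter, and the fusion protein acts only after addition of dexamethasone. Plants lacking AP1 and CAL form cauliflower-like masses of meristems in place of flowers. Apices of this line were collected untreated at day 0, and at day 2 after treatment with 10 µM dexamethasone. The leaf group was rosette leaves of wild-type plants that had begun to flower. No group of mock-treated apices is labelled, and the effects of dexamethasone and of the days passed cannot be told apart. Genotype, stage and tissue differ together between inflorescences and apices.

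The deposited table gives a single value per gene and group, into which the authors had merged its 3 libraries. No spread between libraries, standard deviation or p-value can therefore be given for any value, and the read depth is unknown. The tissue labels were checked with marker genes. The summed level of 8 shoot meristem genes was 105 FPKM in inflorescences, 473 FPKM at day 0, 510 FPKM at day 2 and 2.88 FPKM in leaves. The summed level of 8 photosynthesis genes was 14422 FPKM in inflorescences, 4745 FPKM at day 0, 3782 FPKM at day 2 and 19172 FPKM in leaves. One of these, RBCS1A, which encodes a subunit of the main carbon-fixing enzyme, was listed at 0 in leaves and at 8661 FPKM in inflorescences. The other 7 summed to 5761 FPKM in inflorescences, 2252 FPKM at day 0, 1753 FPKM at day 2 and 19172 FPKM in leaves. An exact 0 in this table can therefore be a failed estimate, and a member listed at 0 is described only as listed at 0.

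Flowers add tissues that meristems and leaves lack. Inside the anther, the tapetum is a secretory cell layer that feeds the developing microspores, supplies the precursors of the sporopollenin wall (exine), and later breaks down and coats the grains. The maturing pollen grain then stores lipid, dries out and stocks the wall enzymes, cytoskeletal proteins and pumps that its tube will use to grow through the pistil. Carpels, ovules, petals and nectaries mature at the same time. In RNA from whole tissue, fewer cells of a type and less RNA per cell cannot be told apart.

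In inflorescences the members lay between 20.2 FPKM and 1138 FPKM, with a median of 42.3 FPKM and quartiles of 28.8 and 73.3 FPKM. At least 100 FPKM was reached by 41 members and at least 200 FPKM by 18. Their values summed to 18679 FPKM, or 2.02% of all FPKM in inflorescences, and the 10 highest members held 24.1% of that sum. The same genes summed to 28.4 FPKM at day 0, 32.8 FPKM at day 2 and 46.2 FPKM in leaves, which was 0.0032%, 0.0038% and 0.0036% of the totals. Of the 249 genes, 198 stood at least 100 times higher in inflorescences than in any other group. With a call defined as a difference of at least 1 in log2(FPKM + 1) and at least 5 FPKM in the higher group, the choice of members fixes a call for all 249 in inflorescences against each other group. By the same rule, 12.6% of 22194 nuclear genes stood higher and 3.96% lower in inflorescences against day 0, 13.9% higher and 4.21% lower against day 2, and 17.1% higher and 18.8% lower against leaves. No member reached 5 FPKM in either apex group, so none could be called between day 2 and day 0, where 0.807% of all genes were higher and 1.61% lower at day 2.

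**Figure D1:**
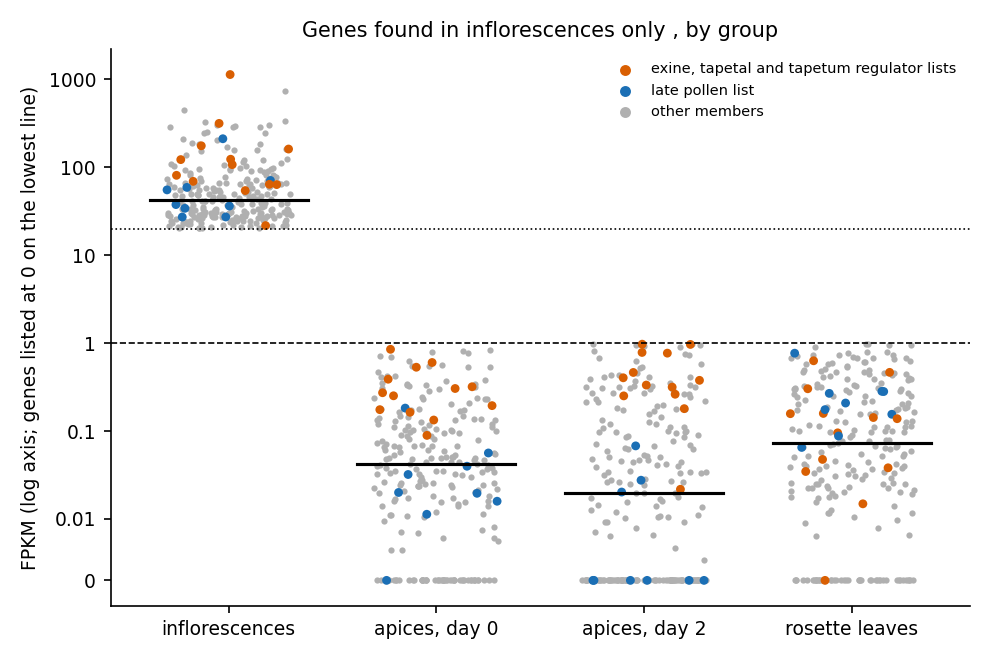
FPKM of all 249 members on a log axis, in inflorescences, day-0 apices, day-2 apices and rosette leaves. Each point is 1 gene, black bars are medians, the dotted line marks 20 FPKM and the dashed line 1 FPKM, and genes listed at 0 lie on the lowest line. The medians were 42.3 FPKM in inflorescences, 0.0416 FPKM at day 0, 0.0199 FPKM at day 2 and 0.0734 FPKM in leaves.

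The highest member was LTP12 (AT3G51590), which encodes a lipid transfer protein of the tapetum. It stood at 1138 FPKM in inflorescences, 0.305 FPKM at day 0, 0.0218 FPKM at day 2 and 0.630 FPKM in leaves. Lipid transfer proteins are small secreted proteins that carry lipids, and 9 members belonged to this family by product name. A7 (AT4G28395), an anther gene of the same family, stood at 316 FPKM in inflorescences, 0.252 FPKM at day 0, 0.262 FPKM at day 2 and 0.159 FPKM in leaves. AT4G08670 followed with 189.6 FPKM in inflorescences, AT4G14815 with 121 FPKM and AT4G28397, the next gene to A7 on chromosome 4, with 79.4 FPKM. The other 4 lipid transfer members lay between 23.3 and 56.8 FPKM in inflorescences.

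Upstream sequences of 4 of the 9 lipid transfer members are shown because all 4 hold the RY element CATGCA, known in plants as a site of B3-domain factors, in the same short stretch before the gene. Each is the 250 nt before the annotated start of the gene, from RefSeq assembly TAIR10.1, written 5′ to 3′ on the strand of the gene, with the element in capitals in whichever orientation it occurs. LTP12 is on chromosome 3, minus strand, and the other 3 are on chromosome 4, plus strand. The sequences are those of the reference assembly and were not compared with the Landsberg erecta plants sampled.
LTP12: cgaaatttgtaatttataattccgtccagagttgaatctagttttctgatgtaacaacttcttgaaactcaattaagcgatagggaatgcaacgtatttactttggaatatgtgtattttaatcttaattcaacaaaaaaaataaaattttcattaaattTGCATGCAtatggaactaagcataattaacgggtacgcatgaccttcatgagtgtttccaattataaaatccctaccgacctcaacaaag
A7: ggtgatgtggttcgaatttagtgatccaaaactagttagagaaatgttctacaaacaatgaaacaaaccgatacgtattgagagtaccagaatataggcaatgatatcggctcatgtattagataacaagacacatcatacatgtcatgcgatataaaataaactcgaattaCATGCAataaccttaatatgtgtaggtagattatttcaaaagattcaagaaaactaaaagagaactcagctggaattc
AT4G14815: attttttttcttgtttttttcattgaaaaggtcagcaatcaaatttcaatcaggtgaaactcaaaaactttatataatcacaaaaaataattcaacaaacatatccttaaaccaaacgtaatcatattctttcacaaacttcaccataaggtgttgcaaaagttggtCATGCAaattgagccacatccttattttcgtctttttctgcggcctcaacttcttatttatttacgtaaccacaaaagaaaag
AT4G28397: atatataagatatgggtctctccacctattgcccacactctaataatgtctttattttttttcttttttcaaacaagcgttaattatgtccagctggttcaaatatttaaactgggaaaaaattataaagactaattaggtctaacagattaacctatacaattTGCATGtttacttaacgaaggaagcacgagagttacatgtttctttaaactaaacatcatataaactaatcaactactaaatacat
In these 4 sequences an element began 70 to 100 nt before the gene, a stretch chosen after these sequences were seen. In LTP12 a pair of elements on opposite strands overlap to form the run in capitals. Of all 139 lipid transfer family genes in the table, 8 had an element starting in that stretch, and among all protein-coding genes 1.18% did. Over the whole 250 nt the element was present in 23 of the 139 family genes (16.5%). It also stood before 2 of 4 oleosin and caleosin members, 2 of 4 proton pump members and 2 of 5 cytochrome P450 members. None of 5 sugar transporter members and none of 6 DUF1216 members had it. The element was thus not particular to the lipid transfer members. A match describes letters only, and binding by any factor was not measured.

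CATGCA was 1 of 8 motifs searched on both strands of the 250 nt before all genes, and its share had the highest ratio to the background. It occurred before 39 of 243 protein-coding members (16.0%), against 6.68% of the other genes that reached 20 FPKM in inflorescences, 9.90% of the genes found in leaves only by the same thresholds and 8.51% of all protein-coding genes. Members noted for flower stages without a pollen stage held it in 17 of 75 cases (22.7%), and members noted for mature pollen in 6 of 51 (11.8%). TATAAA was found before 55.1% of members, 45.0% of the other genes, 56.4% of leaf-only genes and 47.7% of all genes. For CANNTG, the E-box bound by basic helix-loop-helix (bHLH) factors, the shares in the same order were 55.6%, 56.8%, 51.5% and 55.3%. The letters AGAAA stood before 84.4% of members, 81.2% of the other genes, 86.1% of leaf-only genes and 82.5% of all genes. For GTGA the shares were 83.1%, 77.3%, 81.2% and 77.5%, and for CCAACC 7.82%, 6.52%, 4.95% and 6.32%. Leaf-only genes were thus above the members for TATAAA and AGAAA. The E-box variant CACGTG was at 7.82%, 7.97%, 4.95% and 6.58%, and the CArG-box of MADS-domain factors at 3.29%, 2.77%, 0.990% and 2.55%. These are shares of fixed gene sets and were not tested.

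Of 13 listed sporopollenin and exine genes, 7 were members. LAP5 (AT4G34850), a polyketide synthase of sporopollenin, stood at 176 FPKM in inflorescences, 0.851 FPKM at day 0, 0.973 FPKM at day 2 and 0.303 FPKM in leaves. ACOS5 (AT1G62940), the acyl-CoA synthetase that supplies it, stood at 162 FPKM in inflorescences, 0.532 FPKM at day 0, 0.967 FPKM at day 2 and 0.0476 FPKM in leaves. The fatty acyl reductase gene MS2 (AT3G11980) stood at 124 FPKM in inflorescences, 0.389 FPKM at day 0, 0.464 FPKM at day 2 and 0.0382 FPKM in leaves. These 3 enzymes of the tapetum make sporopollenin precursors, and in all 3 leaves had the lowest value. SWEET8 (AT5G40260), a sugar transporter needed for exine patterning, stood at 81.2 FPKM in inflorescences. The fatty acid hydroxylase genes CYP704B1 and CYP703A2 stood at 69.3 and 64.2 FPKM, and ABCG26, the transporter that exports wall precursors, at 54.5 FPKM in inflorescences. Day 2 was above day 0 for all 7, in no case by as much as 0.5 FPKM. Other genes of the same pathway missed the rule through values above 1 FPKM elsewhere. LAP6, a second polyketide synthase, stood at 206 FPKM in inflorescences, 18.96 FPKM at day 0, 19.9 FPKM at day 2 and 6.39 FPKM in leaves. The reductase genes DRL1 and TKPR2 stood at 217 and 104 FPKM in inflorescences, with 9.61 and 10.4 FPKM in leaves. CALS5, which makes the callose around microspores, missed it through its level of 9.24 FPKM in inflorescences.

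From the list of tapetal products and microspore release, 4 of 10 genes were members. Besides LTP12 and A7 these were ATA1 (AT3G42960), a tapetal dehydrogenase, and QRT3 (AT4G20050), a polygalacturonase that frees microspores from the tetrad. ATA1 stood at 123 FPKM in inflorescences, 0.602 FPKM at day 0, 0.770 FPKM at day 2 and 0.0954 FPKM in leaves. QRT3 stood at 107 FPKM in inflorescences, 0.319 FPKM at day 0, 0.377 FPKM at day 2 and 0.465 FPKM in leaves. Genes of hydroxycinnamoyl spermidines, phenolic amides that the tapetum places in the pollen coat, were among the members too. TSM1 (AT1G67990), a tapetal methyltransferase, stood at 454 FPKM in inflorescences, 0.473 FPKM at day 0, 0.327 FPKM at day 2 and 0.248 FPKM in leaves. SHT (AT2G19070), which joins the phenolic acids to spermidine, stood at 183 FPKM in inflorescences and under 0.1 FPKM in each other group. CYP98A9, a hydroxylase of the same amides, stood at 66.6 FPKM in inflorescences, 0.703 FPKM at day 0, 0.631 FPKM at day 2 and 0.264 FPKM in leaves.

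The listed regulators of the tapetum had a median of 11.9 FPKM in inflorescences, against 238 FPKM for the 10 listed tapetal product and microspore release genes. Of 14 listed regulators 2 were members, both bHLH genes. AMS (AT2G16910), which activates exine genes, stood at 63.7 FPKM in inflorescences, 0.273 FPKM at day 0, 0.784 FPKM at day 2 and 0.142 FPKM in leaves. AT1G06170 stood at 21.8 FPKM in inflorescences, 0.164 FPKM at day 0, 0.404 FPKM at day 2 and 0.138 FPKM in leaves. Another 7 of the 14 were under 1 FPKM elsewhere and missed the rule through their level in inflorescences, among them MYB99 at 17.4 FPKM, SPL at 12.4 FPKM, MS1 at 9.50 FPKM and MYB80 at 7.01 FPKM.

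The late pollen list of 16 wall, cytoskeleton and tonoplast genes held 9 members. PPME1 (AT1G69940), a pectin methylesterase of the pollen tube, stood at 212 FPKM in inflorescences, 0.0196 FPKM at day 0, 0.0202 FPKM at day 2 and 0.208 FPKM in leaves. VGDH1 (AT2G47030), of the VANGUARD family of pectin methylesterases, stood at 55.4 FPKM in inflorescences, 0.0200 FPKM at day 0 and 0.769 FPKM in leaves, and was listed at 0 at day 2. The profilin genes PRF4 and PRF5 stood at 71.0 and 59.2 FPKM in inflorescences, the actin depolymerizing factor genes ADF10 and ADF7 at 37.7 and 34.2 FPKM, and the actin genes ACT12 and ACT4 at 27.3 and 27.2 FPKM. These 6 handle actin filaments, along which the pollen tube moves its vesicles. TIP1;3, a tonoplast channel of pollen, stood at 36.3 FPKM in inflorescences. In all 9 genes leaves were above both apex groups, and 6 of the 9 were listed at 0 at day 2.

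Several better known pollen genes missed the rule by their leaf value alone. AGP23 stood at 538 FPKM in inflorescences, 0.224 FPKM at day 0, 0.141 FPKM at day 2 and 3.79 FPKM in leaves. VGD1, needed for pollen tube growth in the style, stood at 291 FPKM in inflorescences, 0.0697 FPKM at day 0 and 1.46 FPKM in leaves, and was listed at 0 at day 2. AGP6 and AGP11, arabinogalactan proteins of pollen, stood at 139 and 81.8 FPKM in inflorescences and at 1.24 and 1.404 FPKM in leaves. These values place the limit of 1 FPKM inside the range of leaf values that late pollen genes had.

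Values outside inflorescences were low but not uniform. Listed at 0 were 50 members at day 0, 99 at day 2 and 46 in leaves, and 21 were listed at 0 in all 3. At least 0.5 FPKM was reached by 15 members at day 0, 19 at day 2 and 29 in leaves. The desiccation-like gene AT1G47980, at 284 FPKM in inflorescences, had the highest sum elsewhere, with 0.784 FPKM at day 0, 0.983 FPKM at day 2 and 0.950 FPKM in leaves. The peroxidase gene AT1G44970, the aquaporin gene PIP2;4, LAP5, SHP1, the fasciclin gene FLA5, AT3G17675, AT3G15280, the pollen calcium-binding gene PC1 and CYP98A9 followed, with sums of 1.60 to 2.45 FPKM over the other 3 groups. Leaves held the highest of the 3 values for 134 members, day 2 for 63 and day 0 for 31, and the remaining 21 were listed at 0 in all. The FPKM of all genes summed to 1283887 in leaves, 900514 at day 0 and 873400 at day 2. Counts of leaves above apices, here and below, were made on deposited values without rescaling.

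Low values differed between the lists, within the limit of 1 FPKM that the rule itself sets on them. The 13 members from the exine, tapetal product and tapetum regulator lists had medians of 0.273 FPKM at day 0, 0.377 FPKM at day 2 and 0.138 FPKM in leaves. Leaves were above both apex groups in 2 of them, LTP12 and QRT3, and day 2 was above day 0 in 12, with LTP12 as the exception. The 9 late pollen members had medians of 0.0200 FPKM at day 0, 0 at day 2 and 0.208 FPKM in leaves, with leaves above both apex groups in 9 of 9. RefSeq also notes stages of expression for genes, and these groups overlap the lists, holding 6 of the 9 late pollen members and 7 of the 13 others. Leaves were above both apex groups for 43 of 51 members noted for mature or germinated pollen, 27 of 75 noted for flower stages without a pollen stage and 53 of 108 with no stage noted. Without the listed genes the counts were 37 of 45 for mature pollen and 26 of 68 for flower stages. Among all members the share was 53.8%. Among the 1661 other genes with at least 1 FPKM in inflorescences and under 1 FPKM elsewhere it was 40.2%. All these values lie under 1 FPKM and the depth behind them is unknown.

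**Figure D2:**
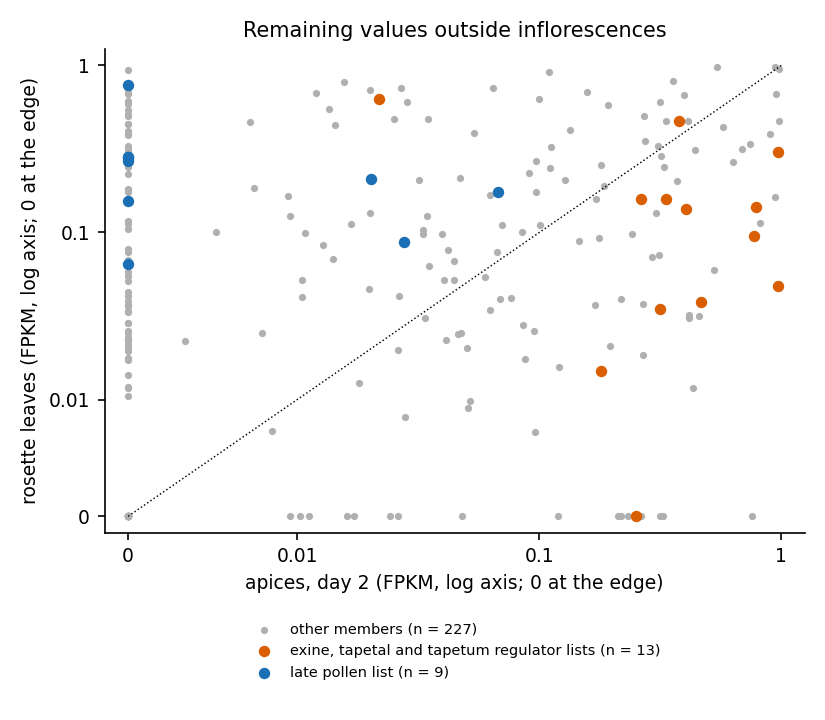
FPKM in rosette leaves against FPKM in day-2 apices for the 249 members, both on log axes with genes listed at 0 at the edge; each point is 1 gene and the dotted line marks equal values. The 9 late pollen members (blue) lie above the line, and 11 of the 13 exine, tapetal and tapetum regulator members (orange) lie below it.

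The pectin-degrading family by product name had 10 members with a median of 166 FPKM in inflorescences. One of them, AT1G02813, is named a pectinesterase and also a protein of unknown function. Pectin is the gel of the cell wall that pollen tubes soften as they grow, and that is cut when microspores separate. The Pectin lyase-like genes AT3G07850, AT5G07410 and AT3G14040 stood at 325, 297 and 251 FPKM in inflorescences and were listed at 0 at day 2. VGDH2 (AT3G62170) stood at 161 FPKM in inflorescences, 0.0244 FPKM at day 0 and 0.301 FPKM in leaves, and was listed at 0 at day 2. Among other wall proteins, XTH3, which cuts and rejoins xyloglucan, stood at 305 FPKM in inflorescences, 0.0735 FPKM at day 0 and 0.183 FPKM in leaves, and was listed at 0 at day 2. The SKU5-like genes sks12, sks11, sks14 and sks18 lay between 49.3 and 76.0 FPKM, and 10 arabinogalactan, fasciclin, extensin and Ole e 1 members between 29.5 and 115 FPKM. Members named for the invertase and pectin methylesterase inhibitor superfamily numbered 5, among them VGDH1, described above as a methylesterase. These 5 lay between 26.7 and 64.8 FPKM in inflorescences. Leaves were above both apex groups in all 5, against 53.8% of all members.

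Proteins of drying and lipid storage were the next set. Late embryogenesis abundant proteins and dehydrins protect cells that lose water, and 8 members carried such names, with a median of 150 FPKM in inflorescences. AT5G38760 stood at 245 FPKM in inflorescences, 0.0680 FPKM at day 0 and 0.0794 FPKM in leaves, and was listed at 0 at day 2. AT2G03850 stood at 244 FPKM in inflorescences, 0.133 FPKM at day 0, 0.0269 FPKM at day 2 and 0.735 FPKM in leaves. AT2G03740 stood at 205 FPKM in inflorescences. Leaves were above both apex groups in 7 of these 8, against 53.8% of all members. Oleosins and caleosins, which coat oil bodies, had 4 members, led by the caleosin gene AT1G23240 at 95.1 FPKM in inflorescences, and here leaves were above both apex groups in none.

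Small secreted peptides were the most numerous named family. The family joins low-molecular-weight cysteine-rich (LCR), SCR-like (SCRL) and thionin genes by product name. LCR and SCRL genes are relatives of defensins and of the pollen ligand of self-incompatibility. The joined family gave 17 members, 7.00% of the protein-coding members, against 0.0710% of the other genes at 20 FPKM and 1.06% of all protein-coding genes. THI2.1 (AT1G72260), a thionin, stood at 159 FPKM in inflorescences, 0.334 FPKM at day 0, 0.370 FPKM at day 2 and 0.204 FPKM in leaves. LCR66 stood at 111 FPKM in inflorescences, 0.120 FPKM at day 0 and 0.212 FPKM at day 2, and was listed at 0 in leaves. LCR25, LCR4, LCR5, LCR1, SCRL20 and SCRL18 were listed at 0 in all 3 other groups. Peptides of the RALF family, which signal to receptor kinases of the cell surface, gave 3 members: RALFL20 at 64.5 FPKM, RALFL4, which keeps the growing pollen tube intact, at 39.3 FPKM and RALFL26 at 22.6 FPKM in inflorescences. A further 3 members were self-incompatibility S1-like and 6 were of the ECA1 and maternally expressed families.

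Short genes made up much of the zero class. The 21 members listed at 0 in all other groups had a median transcript length of 457 nt, against 1261 nt for the 130 above 0 in all groups. The second highest member, AT4G04078, an uncharacterized protein-coding gene, was among them, at 744 FPKM in inflorescences and listed at 0 in the other groups. All of its 50-nt windows recur in the lncRNA AT4G04077, annotated on the opposite strand, which stood at 15.8 FPKM in inflorescences. The overlap of these genes spans 108 nt. FPKM is scaled by transcript length, so the levels and ranks of very short genes, this one included, are uncertain. AT1G23650 stood at 285 FPKM in inflorescences and AT2G16016 at 104 FPKM, and both were listed at 0 in the other groups. They were 2 of 20 members named as uncharacterized. Among the other genes in the 30 highest, the GDSL-like lipase gene AT1G20130 stood at 286 FPKM in inflorescences, 0.0891 FPKM at day 0, 0.00462 FPKM at day 2 and 0.101 FPKM in leaves. The putative membrane lipoprotein gene AT5G17340 stood at 212 FPKM, AT1G02813 of the DUF538 family at 172 FPKM and the prolamin-like gene AT5G48210 at 139.8 FPKM in inflorescences. None of these 4 had more than 0.527 FPKM in another group.

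**Figure D3:**
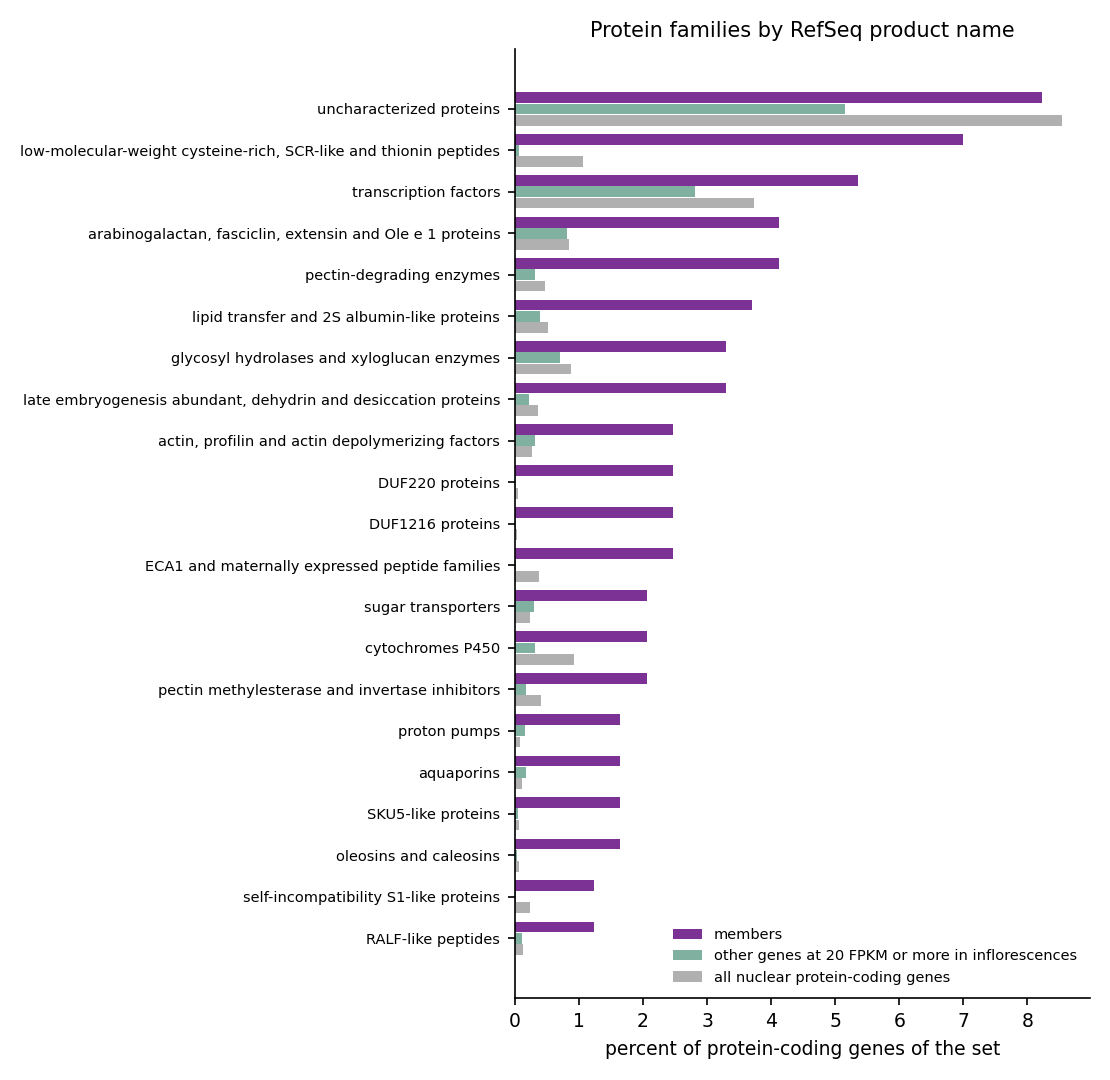
Share of protein-coding genes in each protein family, by RefSeq product name, for the members, for the other genes at 20 FPKM or more in inflorescences and for all nuclear protein-coding genes. The cysteine-rich peptides hold 7.00% of members against 1.06% of all genes.

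A pair of families of unknown function had many genes among the members. Of 11 genes named DUF1216 in the table, 6 were members, and of 14 named DUF220, 6 were members. AT3G28790 (DUF1216) was the fourth highest member at 336 FPKM in inflorescences, with 0.0613 FPKM at day 0 and 0.309 FPKM in leaves, and was listed at 0 at day 2. AT3G28980 of the same family stood at 307 FPKM in inflorescences. AT1G23570 (DUF220) stood at 158 FPKM in inflorescences, and the other 5 DUF220 members lay between 20.8 and 45.4 FPKM. Family shares in the other families ran from 0.877% of the uncharacterized proteins to 22.2% of the SKU5-like genes.

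Transport genes covered sugars, water, protons, boron and phosphate. HA9 (AT1G80660), a plasma membrane proton pump, stood at 78.2 FPKM in inflorescences, 0.0889 FPKM at day 0, 0.0846 FPKM at day 2 and 0.101 FPKM in leaves. Its relative HA6 stood at 62.4 FPKM in inflorescences. The vacuolar pump genes VATG3 and VHA-E2 stood at 72.0 and 33.9 FPKM. Leaves were above both apex groups in all 4 pump genes on deposited values, and in 53.8% of all members. With upper quartile factors of 0.845 for leaves, 1.02 at day 0 and 1.03 at day 2, this order would not hold for HA9. The monosaccharide transporter genes STP2 and STP6 stood at 65.3 and 30.7 FPKM in inflorescences, and the sugar exporter genes SWEET3 and SWEET7 at 48.6 and 26.4 FPKM. The boron exporter gene BOR4 stood at 44.9 FPKM, NIP7;1, a boric acid channel of anthers, at 24.7 FPKM, and the phosphate transporter gene PHT1;6 at 38.4 FPKM.

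Transcription factors supplied 13 members, 1.303% of the 998 in the table, all below 64 FPKM in inflorescences. They were 5.35% of the protein-coding members, against 3.74% of all protein-coding genes, but with a threshold of 50 FPKM in inflorescences they were 1.92% of members. Besides AMS and AT1G06170 they included LBD2 at 54.9 FPKM, LBD20 at 43.6 FPKM and LBD27, which guides microspore division, at 21.6 FPKM. The bHLH genes AT2G31215 and CES stood at 27.8 and 20.5 FPKM, the MYB-like gene AT1G18960 at 31.4 FPKM, the bZIP gene AT1G35490 at 28.8 FPKM and NF-YB7 at 32.0 FPKM. MYB21 (AT3G27810), which drives late stamen and petal growth, stood at 41.3 FPKM in inflorescences, 0.0346 FPKM at day 0, 0.00914 FPKM at day 2 and 0.166 FPKM in leaves. STK (AT4G09960), a MADS-domain factor of ovule identity, stood at 32.9 FPKM in inflorescences, 0.558 FPKM at day 0, 0.433 FPKM at day 2 and 0.0116 FPKM in leaves. SHP1 (AT3G58780), a MADS-domain factor of carpel margins and ovules, stood at 27.5 FPKM in inflorescences, 0.812 FPKM at day 0, 0.975 FPKM at day 2 and 0.295 FPKM in leaves. STK and SHP1 were the 2 members among 12 carpel and ovule genes, and MYB21 and the nectary invertase gene cwINV4, at 33.2 FPKM, the 2 among 8 petal, stamen and nectary genes.

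Other listed reproductive genes were not members. None of 13 pollen regulator and sperm cell genes reached 20 FPKM in inflorescences. The highest were MYB101, a pollen tube regulator, at 16.7 FPKM, AGL30 at 12.9 FPKM and the sperm histone gene MGH3 at 11.1 FPKM. Of 12 meiosis genes only the recombinase gene DMC1 reached the threshold, with 20.1 FPKM in inflorescences, 6.40 FPKM at day 0, 6.90 FPKM at day 2 and 0.929 FPKM in leaves. Of 6 embryo sac genes 1 reached it, EC1.4 at 26.2 FPKM, which stood at 29.4 FPKM at day 0, 42.6 FPKM at day 2 and 16.1 FPKM in leaves. None of the 9 floral organ identity genes was a member, since each had at least 1 FPKM in some other group.

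**Figure D4:**
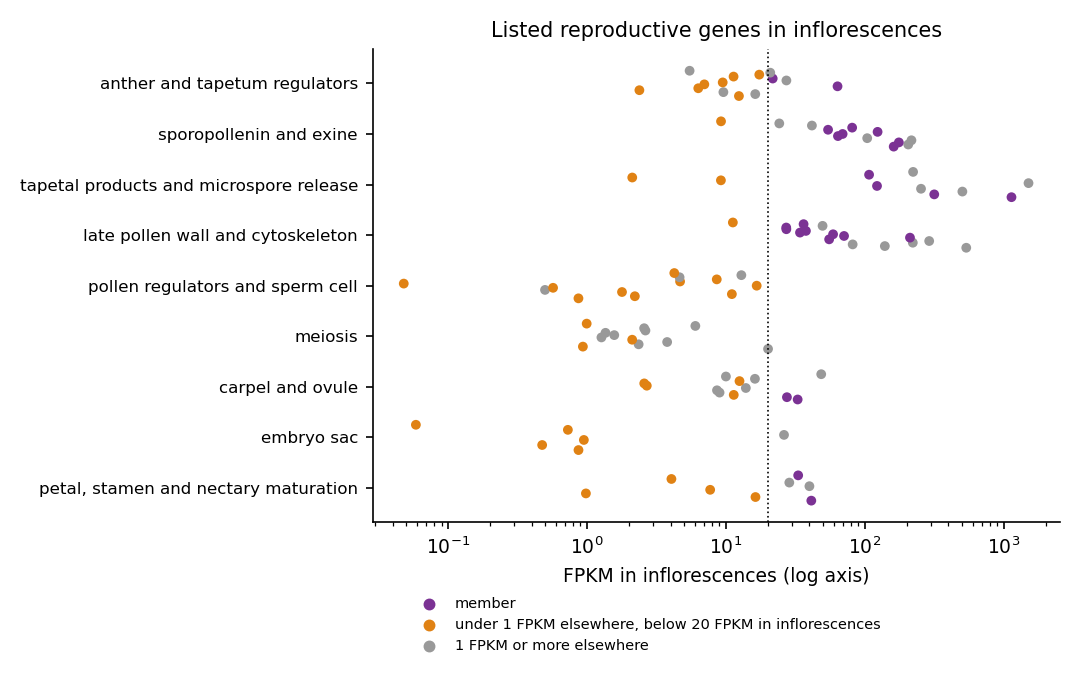
FPKM in inflorescences, on a log axis, of the genes in 9 reproductive lists; each point is 1 gene, and the dotted line marks 20 FPKM. Members (purple) are most frequent in the sporopollenin and exine list (7 of 13) and the late pollen list (9 of 16), while none of 13 pollen regulator and sperm cell genes lies right of the line.

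Beside the members, 101 genes reached 20 FPKM in inflorescences and missed only by the leaf value, 53 of them with leaves under 5 FPKM. Some of the rest had similar values in both wild-type tissues. AT5G47690 stood at 43.5 FPKM in inflorescences and 42.9 FPKM in leaves, and was listed at 0 in both apex groups. Such apex values listed at 0 can be failed estimates, and genotype and tissue cannot be told apart for them either. Of the 101 genes, the lipid transfer family gene AT1G66850 was highest, at 2010 FPKM in inflorescences, 0.477 FPKM at day 0, 0.108 FPKM at day 2 and 1.17 FPKM in leaves. Another 16 missed by the day-2 value alone. Of these, 5 were lipid transfer family genes, led by AT5G62080 at 372 FPKM in inflorescences, 0.661 FPKM at day 0, 2.40 FPKM at day 2 and 0.256 FPKM in leaves. MEE48, a glycosyl hydrolase gene on the tapetal list, stood at 254 FPKM in inflorescences, 0.990 FPKM at day 0, 1.55 FPKM at day 2 and 0.0994 FPKM in leaves. By day 0 alone 7 missed, among them NAC025 at 104 FPKM and the Argonaute gene AGO9 at 50.8 FPKM in inflorescences, and 93 missed by both apex groups with leaves under 1 FPKM. Just inside the inflorescence threshold lay SBT5.4 at 20.2 FPKM, AT3G62710 at 20.3 FPKM, AT4G18395 at 20.4 FPKM, CES at 20.5 FPKM and NIP4;1 at 20.7 FPKM. Just outside lay SK14 at 19.99 FPKM, AT4G12940 at 19.7 FPKM, AT3G05610 and AT5G44265 at 19.5 FPKM and PAP21 at 19.5 FPKM. Nearest to the limit of 1 FPKM, AT1G47980, PIP2;4, FLA5, AT4G24140 and SHP1 were inside with 0.975 to 0.983 FPKM in the highest of the other 3 groups. GAD5, AT3G63095, AT3G19390, BXL3 and RALFL8 were outside with 1.01 to 1.04 FPKM.

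RefSeq notes, which the rule did not read, differed between the members and the other genes of inflorescences. Stage notes themselves describe expression, so they are not independent of a rule on expression. RefSeq notes a cell location for 166 protein-coding members. For 110 of them (66.3%) the note named the endomembrane system, the route of secreted and membrane proteins, with or without other locations. The share was 12.1% of the other genes at 20 FPKM, 52.5% of the genes found in leaves only by the same thresholds and 29.0% of all protein-coding genes. Why the other genes at 20 FPKM lay below all genes in this note was not tested. Leaf-only genes were thus also well above the average gene in this note. A stage of expression was noted for 141 members. It included mature or germinated pollen for 51 (36.2%), against 2.19% of the other genes at 20 FPKM, 4.92% of leaf-only genes and 5.40% of all. It named flower stages without a pollen stage for 75 (53.2%), against 1.06%, 23.0% and 11.8%. Words for leaf, seedling or cotyledon stages were noted for 14.2% of members, 1.68% of the other genes at 20 FPKM, 18.0% of leaf-only genes and 7.14% of all. A cotyledon stage can be a stage of the embryo, so this is not a share of vegetative expression. Members carried such words more often than the average gene too. Only stages named in a note were counted, and for each kind of stage the other genes at 20 FPKM lay below all genes. Of the 8851 genes at 20 FPKM in inflorescences, 8385 reached 1 FPKM in leaves and in at least 1 apex group. Notes of the other genes at 20 FPKM thus named each kind of stage less often than notes of all genes did. The shares describe the wording of notes and not where genes are expressed. Why the wording differs was not tested. Of the 46 stage-noted genes that missed only by the leaf value, 43.5% were noted for mature pollen, and of the 10 that missed only by day 2 none was.

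**Figure D5:**
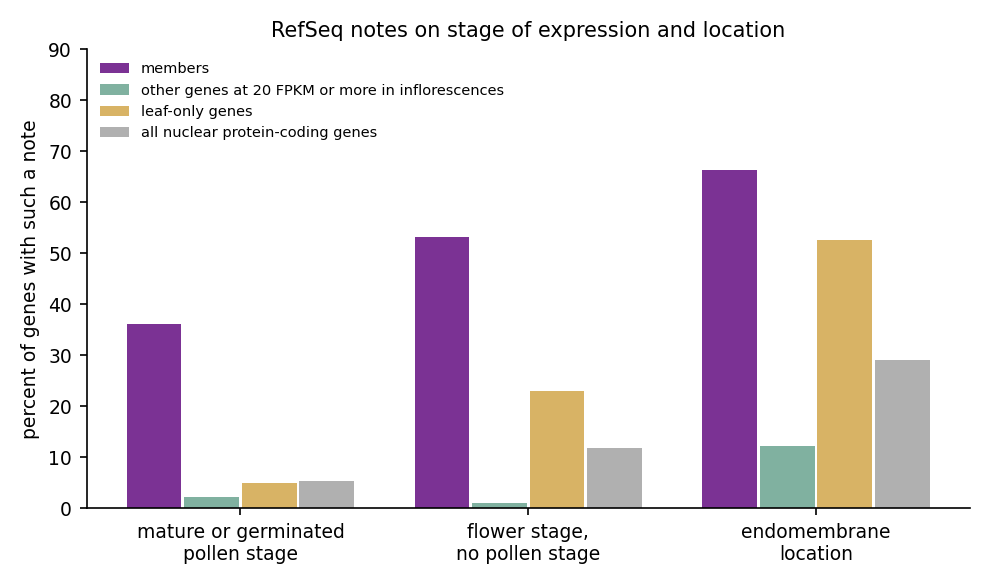
Percent of genes whose RefSeq note names mature or germinated pollen, flower stages without a pollen stage, or an endomembrane location, among genes with a note of that kind. Only stages named in a note were counted. Bars from left to right are the members, other genes at 20 FPKM or more in inflorescences, leaf-only genes and all nuclear protein-coding genes; members stand at 36.2%, 53.2% and 66.3%.

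The members' median coding length was 744 nt, against 1005 nt for the other genes at 20 FPKM, 1122 nt for leaf-only genes and 1065 nt for all. A coding length under 300 nt was found in 14.4% of members, 4.86% of the other genes, 8.91% of leaf-only genes and 6.50% of all. A single coding exon was found in 26.3% of members, 13.3% of the other genes, 25.7% of leaf-only genes and 23.2% of all.

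Some members were neighbours. Of 243 protein-coding members 22 (9.05%) were next to another member, against 1.72% of other genes, and 11.9% of leaf-only genes were next to another leaf-only gene. They formed 11 pairs, 9 of them on a single strand and 5 with the same product name. They were the caleosin genes AT1G23240 and AT1G23250, the DUF220 genes AT1G23560 and AT1G23570 and also AT1G23590 and AT1G23600, and the DUF1216 genes AT3G28780 and AT3G28790. The pair A7 and AT4G28397 encodes lipid transfer proteins, sks14 and sks12 SKU5-like proteins, and cPT8 and cPT9 prenyl transferases. VGDH2 was next to AT3G62180 of the inhibitor superfamily, AT1G26710 to AT1G26720, CYP86C2 to the cellulase gene AT3G26140, and AT3G50570 to AT3G50580.

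Overlap with other genes limits some values. In RefSeq 43 members overlap another annotated gene, 42 of them on the opposite strand and 2 on the same strand. The same-strand overlaps are LAP5 with AT4G34840 over 89 nt and LCR1 with HINT3 over 14 nt, and LAP5 has one on the opposite strand too. Whether counting used the strand is not given in the sources used here. AT5G26717 overlaps emb1138 on the opposite strand over 440 nt, and emb1138 stood at 202 FPKM in inflorescences, 142 FPKM at day 0, 90.5 FPKM at day 2 and 224 FPKM in leaves. The member stood at 24.4 FPKM in inflorescences, 0.0318 FPKM at day 0 and 0.276 FPKM in leaves, and was listed at 0 at day 2. Of 248 members with sequence, 200 shared no 50-nt window with another annotated transcript, and 24 (9.68%) shared at least 10%, against 12.8% of all protein-coding genes. The values of AT3G07850 and AT3G14040, which share 25.9% and 24.8% of their windows with each other, and of ACT12, which shares 41.1% with ACT4, ACT11 and the opposite-strand gene RPP13, are uncertain for this reason. At least 50% was shared by 10 members, most often with a gene annotated on the opposite strand. Besides AT4G04078 and AT5G26717 these included CYP86C2 and the oleosin gene AT2G25890 with 100% each, FLA3 with 96.3%, AT4G18395 with 63.5% and CYP98A9 with 60.3%. AT5G17340 shared 48.8%, SHT 31.0% and MYB21 18.2% with opposite-strand genes. Their values carry the same uncertainty, since the use of strand in counting is not known.

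Members outside the protein-coding class were 3 transcribed pseudogenes, among them SCRL28 at 31.1 FPKM in inflorescences, the tRNA gene AT3G50505, whose sequence recurs in other tRNA genes, AT3G43829, which the reference does not list, and the microRNA gene MIR780. MIR780 (AT4G14811) stood at 47.0 FPKM in inflorescences and was listed at 0 in the other groups. It overlaps AT4G14810 on the opposite strand over 170 nt, which had 6.46 FPKM in inflorescences, 0.197 FPKM at day 0 and was listed at 0 at day 2 and in leaves. The mature sequences that RefSeq TAIR10.1 gives for MIR780 on chromosome 4, minus strand, are shown because they define which transcripts it could pair with. Bases 2 to 8 are in capitals only as a mark, and pairing with any transcript was not tested.
miR780.1: uCUAGCAGcuguugagcaggu
miR780.2: uUCUUCGUgaauaucuggcau
Their seeds differ. Poly(A)-selected libraries do not measure mature microRNAs, so the value refers to the gene's longer transcript.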

How the data were processed

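Per the labels, RNA of 4 groups with 3 libraries each (12 in all) was sequenced for 50 cycles from stranded, poly(A)-selected libraries. Whether libraries came from separate plants is not stated. The authors deposited 1 FPKM value per gene and group. The unit is an inference from the range of the values and from Cufflinks in the submitters' processing notes, since the header names only genes and groups. The submitters' processing notes name Cufflinks 2.1.1, TopHat2 2.0.10, Bowtie2 2.1.0 and CASAVA 1.8.2 and the build TAIR10. Annotation, options, merging and scaling were not given in the sources used here. Cufflinks can divide reads among similar copies.

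The 34133 rows were summed per identifier to 33559, of which 567 had several rows and none of those was a member. Differences were taken on the log2(FPKM + 1) scale among 22194 nuclear genes with at least 1 FPKM in a group, which understates those of low genes. With 1 value per group no test was run, and depth, and thus the precision of low values, is unknown. Names, notes and sequences came from RefSeq TAIR10.1 by locus tag (248 of 249 members matched); because its build name differs from that of the files, no coordinates are given. Families were read from product names, which can misplace single genes.

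The members, lists and motifs were chosen with earlier results of these data known. Named were list genes, the 30 highest members, those at the thresholds, the 10 with the highest sums elsewhere, neighbours, and regulators and transporters; other genes were named after their values were seen. Alternatives covered thresholds, rescaling, pseudocount, filter, repeated rows, transcript length and shared sequence. Tools were Python 3.11.15, pandas 2.3.3, numpy 2.4.6 and matplotlib 3.10.9.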

Additional observations from a re-analysis of the deposited data

How the results depend on the processing

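The number of members was 435 with 10 FPKM in inflorescences and 104 with 50 FPKM, and otherwise ranged from 204 with a limit of 0.5 FPKM elsewhere to 298 with 2 FPKM. Rescaling each group to its upper quartile gave 281 members, 245 of them shared with the 249. Without genes that share at least 10% of their windows, an alternative chosen after seeing the data, 225 remained. The endomembrane share was 76.5% at 50 FPKM, and 18.5% of members had another within 3 genes on either side, against 4.93% of other genes. Of 68 alternative values 9 moved, 5 of them among 42 family shares, all at 50 FPKM. Late embryogenesis abundant proteins were then 7.69% of members, against 3.29% as reported, DUF1216 proteins 5.77%, against 2.47%, DUF220 proteins 0.962%, against 2.47%, aquaporins 0%, against 1.65%, and transcription factors 1.92%, against 5.35% and below their share of all genes. Rescaling shifted the median log2 difference of all genes between inflorescences and leaves to 0.44 from 0.03, and the higher share of calls to 65.3% from 47.8%. No paired analysis was possible because each group has a single merged value. Leaving out a replicate was not possible for the same reason, and the unknown depth limits all values under 1 FPKM.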
